A study of Mus musculus with 6 samples.

Results

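The 10 genes described here encode proteins of the lysosome: the proteases Ctsa, Ctsb, Ctsd, Ctsh, Ctsk, Ctsl, Ctss and Ctsz, the protease Lgmn and the membrane protein Lamp1. They were found by symbol in the feature lists of 6 single-cell libraries, and all 10 of 10 were present among 32285 genes. The animals were mice bearing EMT6, a mouse mammary carcinoma line, and were either BALB/c animals labelled WT or animals labelled Cysltr1 KO, which lack a receptor for cysteinyl leukotrienes. Bone marrow was enriched for hematopoietic progenitors, and spleen and tumor were enriched for CD45, in both genotypes and by magnetic selection. Each tissue and genotype gave 1 library, made from 3 pooled mice. The labels give no age or sex, do not name the strain of the Cysltr1 KO animals, do not describe the Cysltr1 allele, and do not say whether the tissues came from the same mice.

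Lysosomes are acidic compartments in which proteins taken up by endocytosis, phagocytosis or autophagy are digested. Most cathepsins are made as inactive precursors, sorted to the lysosome and activated there by cleavage. Ctsb, Ctsh, Ctsk, Ctsl, Ctss and Ctsz are cysteine proteases of the papain family, Ctsd is an aspartic protease, and Ctsa is a serine carboxypeptidase that also protects lysosomal glycosidases. Lgmn encodes legumain, a cysteine protease that cuts after asparagine and processes several cathepsins, and Lamp1 encodes a heavily glycosylated protein of the lysosomal membrane. In antigen-presenting cells cathepsin S cleaves the invariant chain of class II molecules, and in osteoclasts cathepsin K digests bone collagen.

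On the mouse build mm10 the 10 genes lie on 8 chromosomes, and all are annotated as protein-coding. Ctsk (chr3:95499256-95509362, plus strand) and Ctss (chr3:95526786-95556403, plus strand) are neighbours on chromosome 3. Chromosome 2 carries Ctsa (chr2:164832873-164841032, plus strand) and Ctsz (chr2:174427493-174439039, minus strand). The others are Ctsb (chr14:63122462-63145923, plus strand), Ctsd (chr7:142375911-142388038, minus strand), Ctsh (chr9:90054152-90076089, plus strand), Ctsl (chr13:64359337-64370890, minus strand), Lgmn (chr12:102394084-102439813, minus strand) and Lamp1 (chr8:13159161-13175338, plus strand).

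Lysosomal genes are known for a promoter element that is bound by Tfeb, Tfe3 and Mitf, transcription factors of lysosome biogenesis. RefSeq promoter windows of build GRCm38.p6, from 250 bases before to 50 bases after a start site, were matched by symbol for 8 of the 10 genes and gave 10 windows. The full palindrome, TCACGTGA with a G before it and a C after it, was in none of them and in 0.326% of all 32851 windows. The inner 8 letters, TCACGTGA, stood in windows of 2 genes, Ctsa and Ctsd, and in 0.974% of all windows. The core CACGTG, which the longer forms contain and which reads the same on both strands, stood in windows of 5 genes and in 7.15% of all windows. Stretches around these letters are shown because the form and spacing of the element differ between the genes, and capitals mark the longest form found. For Ctsa and Ctsd, whose windows held 2 matches of the core each, 1 match is shown. Ctsa and Lgmn each had a further window without the core, at chr2:164832622-164832921 and chr12:102439679-102439978. The counts above are of genes with a match in any window, beside shares of windows.
Ctsa: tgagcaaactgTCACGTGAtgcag
Ctsd: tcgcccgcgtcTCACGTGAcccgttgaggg
Lamp1: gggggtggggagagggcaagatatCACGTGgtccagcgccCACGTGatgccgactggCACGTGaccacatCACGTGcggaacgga
Lgmn: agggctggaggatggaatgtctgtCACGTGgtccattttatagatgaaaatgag
Ctsl: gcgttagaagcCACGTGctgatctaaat
The stretches lie at chr2:164833749-164833772 (Ctsa, plus strand), chr7:142387908-142387937 (Ctsd, minus strand), chr8:13159076-13159160 (Lamp1, plus strand), chr12:102439112-102439165 (Lgmn, minus strand) and chr13:64370740-64370767 (Ctsl, minus strand). Those of Ctsa, Ctsd and Ctsl overlap a UTR of 1 or more annotated transcripts, and those of Lamp1 and Lgmn overlap no exon. Lamp1 held 4 copies of the core within 61 bases of its start site. A match of letters is a description of the sequence and not a measure of binding.

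The libraries held 5852 to 9740 barcodes and 40377940 to 75873784 unique molecular identifiers (UMIs, each standing for 1 captured RNA molecule), and 5036 to 8319 cells were kept in each. Kept marrow cells had a median of 12702 UMIs in WT and 6312 in KO, spleen cells 2917 and 3646, and tumor cells 3146 and 2349. Pairs of libraries shared 46 to 128 barcodes, 0.786% to 1.43% of the smaller library. Cysltr1 itself ran against the labels in marrow and spleen. In CPM (UMIs of the gene per 1000000 UMIs) it was at 4.81 in the marrow library labelled WT and 24.4 in that labelled KO, at 7.01 and 34.1 for spleen, and at 9.72 and 7.73 for tumor. Reads from outside a deleted part would not check a deletion, and WT and KO below mean the libraries labelled so.

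Cells were clustered without the 10 genes and gated on marker genes, none of which was among the 10. The gate also counted markers among the 10 leading genes of a cluster. The described genes could take places there, as Ctsk did in tumor cluster 18. The naming of clusters was therefore not fully independent of the values described. The macrophage class had summed C1qa, C1qb and C1qc at 12400 and 11160 CPM in spleen (WT and KO) and at 6329 and 7005 CPM in tumor. The neutrophil class had S100a8 and S100a9 at 287900 and 309000 CPM for the marrow libraries, 165000 and 145100 CPM for spleen, and 60770 and 45430 CPM for tumor. In the B cell class Cd79a and Cd79b reached 4693 and 4817 CPM, and in the dendritic cell class H2-Aa and H2-Ab1 reached 24860 and 23770 CPM. The largest dendritic cluster had 9 supporting markers but was led by class II genes rather than by its own markers. The carcinoma class (tumor clusters 0, 3 and 10) had Krt8 at 677 to 1383 CPM and Ptprc, which encodes CD45, at 2.58 to 5.01 CPM. It rested on 4 to 5 markers, its clusters 0 and 3 were led by the smooth muscle actin gene Acta2, and the epithelial gene Cdh1 was at 0.396 CPM or less. No marrow macrophage class and no tumor B cell or dendritic cell class reached 50 cells in both libraries, so these were not compared.

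CPM below is the sum of a gene's UMIs over the cells of a class, scaled to the UMI total of that class. Each UMI tag stands for 1 molecule, so CPM carries no term for transcript length. With 1 library per arm no difference between genotypes has a replicate check and none was tested. Intervals are exact, at 95%, and cover counting error only: they leave out differences between mice and between libraries. A gene was called apart between libraries when it differed by at least 1.5-fold on the log2(CPM + 1) scale and had at least 100 UMIs over both, which understates changes of low genes.

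The macrophage class carried the most RNA of these genes among the classes compared. Together they made up 1.48% and 1.21% of all UMIs in spleen macrophages (WT and KO, 109 and 193 cells) and 1.13% and 0.944% in tumor macrophages (645 and 417 cells). The same sum was 0.255% and 0.233% in spleen dendritic cells, 0.144% in B cells of both libraries, 0.273% and 0.274% in spleen neutrophils, and 0.106% and 0.0989% in marrow neutrophils. Tumor neutrophils stood at 0.493% and 0.515%, and carcinoma cells at 0.278% and 0.308%. Spleen T cells, taken here as a class low in these genes, were at 0.0656% and 0.0637%.

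**Figure D1:**
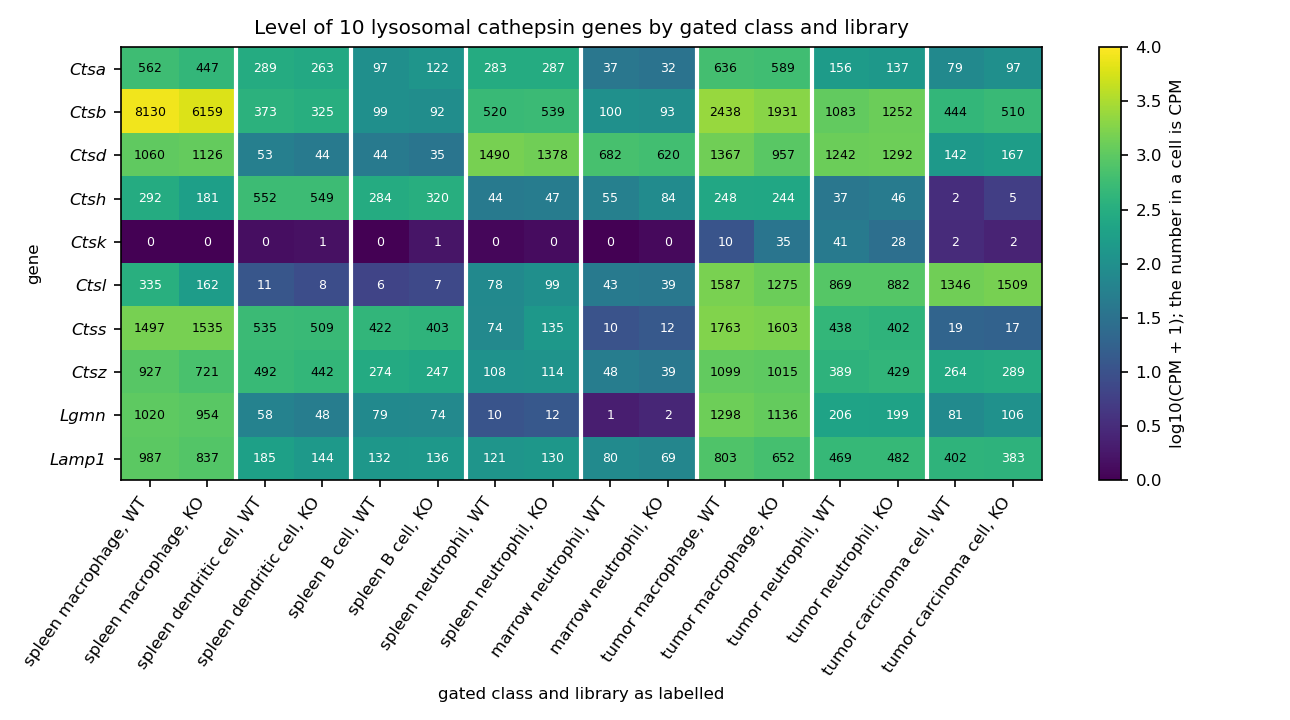
CPM of the 10 genes (rows) in the 8 compared classes, with the WT and the KO library of each class side by side. Color is log10(CPM + 1) and the number in each cell is CPM. Ctsb in spleen macrophages is the highest value of the plot (8130 and 6159), Ctsk is near 0 outside the tumor, and each gene has its own order of classes.

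Ctsb, a cysteine protease with both endopeptidase and peptidyl-dipeptidase activity, was the most abundant of the 10 in spleen macrophages. It measured 8130 CPM (7853 to 8414) in WT and 6159 CPM (5973 to 6350) in KO, and 109 of 109 and 189 of 193 cells held a UMI of it. Tumor macrophages had 2438 and 1931 CPM, so the ranges of the 2 tissues did not overlap. The level was 373 and 325 CPM in dendritic cells, 98.7 and 91.5 in B cells, and 444 and 510 in carcinoma cells. B cells were below spleen T cells, which had 129 and 110 CPM.

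Ctss, the protease of the invariant chain, and Lgmn, the asparagine-directed protease, were high in the macrophages of both tissues. Ctss measured 1497 and 1535 CPM in spleen macrophages and 1763 and 1603 CPM in tumor macrophages. It was present at 535 and 509 CPM in dendritic cells and at 422 and 403 CPM in B cells, the other antigen-presenting classes. In carcinoma cells it was at 18.8 and 16.8 CPM. Lgmn was at 1020 and 954 CPM in spleen macrophages and at 1298 and 1136 CPM in tumor macrophages. Outside macrophages it was at 58.2 and 48.1 CPM in dendritic cells and at 78.5 and 74.1 CPM in B cells. Dendritic cells and B cells thus had Ctss among their most abundant members and Lgmn among the low ones.

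Ctsh, a cysteine protease that acts mainly as an aminopeptidase, had a different order. Its highest level among 21 classes measured in both libraries was in spleen dendritic cells, at 552 and 549 CPM, followed by a class gated on monocyte markers in spleen at 432 and 435 CPM. B cells held 284 and 320 CPM, close to the 292 and 181 CPM of spleen macrophages. Neutrophils, T cells and carcinoma cells were low, with 43.9 and 47.0 CPM in spleen neutrophils, 4.35 and 2.15 CPM in spleen T cells and 2.32 and 4.56 CPM in carcinoma cells. A UMI of Ctsh was found in 92.1% and 88.3% of dendritic cells (median depth 8103 and 8125 UMIs). It was found in 1.21% and 0.778% of spleen T cells (2995 and 3950 UMIs), and thinned to 1000 UMIs the shares were 44.6% and 44.9% of dendritic cells and 0.507% and 0.210% of T cells.

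Ctsz, a carboxypeptidase also called cathepsin X, was broad among antigen-presenting cells, with 492 and 442 CPM in dendritic cells and 274 and 247 CPM in B cells. Macrophages had 927 and 721 CPM in spleen and 1099 and 1015 CPM in tumor. Ctsa was similarly spread, from 562 and 447 CPM in spleen macrophages and 636 and 589 CPM in tumor macrophages to 97.4 and 122 CPM in B cells. Its level in spleen neutrophils, 283 and 287 CPM, lay within the range of dendritic cells, 289 and 263 CPM.

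Ctsd, the aspartic protease, had its highest level of the 21 classes in spleen neutrophils. Spleen neutrophils had 1490 CPM (1459 to 1522) and 1378 CPM (1335 to 1422), above the 1060 and 1126 CPM of spleen macrophages. Spleen neutrophils, whose median cell had 2194 and 2351 UMIs, showed a Ctsd UMI in 90.1% and 88.7% of cells. Dendritic cells and B cells were low, with 53.0 and 43.6 CPM and 43.9 and 35.0 CPM, under the 178 and 192 CPM of spleen T cells. Spleen dendritic cells and B cells were therefore low in Ctsd and high in Ctss and Ctsh, and spleen neutrophils the reverse.

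Ctsl, an endopeptidase known for both lysosomal and secreted roles, was high in the tumor classes and low in the spleen. Carcinoma cells held 1346 and 1509 CPM, which overlapped tumor macrophages at 1587 and 1275 CPM, and made Ctsl the most abundant of the 10 genes in carcinoma cells. In the spleen Ctsl was low, at 335 and 162 CPM in macrophages, 10.9 and 7.71 CPM in dendritic cells and 5.68 and 6.55 CPM in B cells. Lamp1, the membrane protein, was present in every class: 987 and 837 CPM in spleen macrophages, 803 and 652 CPM in tumor macrophages, 402 and 383 CPM in carcinoma cells, and 132 and 136 CPM in B cells.

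Ctsk, the collagen-digesting protease, was at or near 0 outside the tumor. It had 0 UMIs in spleen macrophages of both libraries, where 3 counts would amount to 7.50 and 4.45 CPM, and 0 of 109 and 0 of 193 cells held one. Spleen dendritic cells had 2 UMIs in each library, and B cells had 0 and 4. Marrow neutrophils had 0 and 1. The tumor macrophage class held 54 and 157 UMIs.

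In the order of the 21 classes by level, 8 to 18 of the 20 neighbouring pairs overlapped in the ranges of their libraries, depending on the gene. Ctss was the most finely ordered gene, with 8 overlapping pairs, and Ctsk the least, with 18. Ctsb in spleen macrophages, Ctsh in spleen dendritic cells, Ctsd in spleen neutrophils and Ctsz and Lgmn in tumor macrophages each stood clear of the next class. So did Ctsl (2072 to 2281 CPM) and Ctss (1803 to 1851 CPM) in the tumor class gated on monocyte markers. Unnamed clusters were outside this order. Some exceeded the leading class: Ctsa (872 and 862 CPM), Ctsd (2749 and 2523 CPM) and Ctsz (1235 and 1247 CPM) in tumor cluster 9. In tumor cluster 11 Lgmn, Ctsl, Ctss and Lamp1 (1293 and 1188 CPM) did so. Ctsb and Ctsh did not in these 2 clusters. Ctsa in tumor macrophages (589 to 636 CPM) overlapped the spleen monocyte-marker class (554 to 634 CPM), and Lamp1 in that same spleen class (944 to 1039 CPM) overlapped spleen macrophages.

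Neutrophils were gated in all 3 tissues, and 6 of the 10 genes were higher in spleen than in marrow and higher again in tumor, with no overlap between the libraries of 2 tissues. Over all 7450 genes with enough UMIs the same order was found for 16.3%. Ctsb measured 99.6 and 92.5 CPM in marrow, 520 and 539 CPM in spleen and 1083 and 1252 CPM in tumor. For Ctsl the levels were 42.7 and 39.0, then 78.1 and 98.7, then 869 and 882 CPM. Lgmn, at 1.14 and 1.66 CPM in marrow and 10.1 and 11.8 CPM in spleen, reached 206 and 199 CPM in tumor. The same order held for Ctss (9.68 and 11.9, 74.0 and 135, 438 and 402 CPM), Ctsz (48.4 and 39.2, 108 and 114, 389 and 429 CPM) and Lamp1 (80.3 and 68.8, 121 and 130, 469 and 482 CPM).

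The remaining 4 genes departed from that order. Ctsd was at 682 and 620 CPM in marrow neutrophils, against 1490 and 1378 CPM in those of the spleen and 1242 and 1292 CPM in those of the tumor. Ctsa was likewise highest in spleen, with 37.0 and 32.0 CPM, then 283 and 287 CPM, then 156 and 137 CPM. Ctsh was highest in marrow neutrophils, at 55.2 and 84.2 CPM, and Ctsk, with 1 UMI or none in each marrow and spleen library, was at 41.5 and 27.6 CPM in tumor neutrophils. The marrow class joined cluster 1, led by Retnlg, and cluster 4, led by the immature neutrophil markers Ngp and Camp. Ctsh was at 35.0 and 56.4 CPM in cluster 1, which enclosed the 43.9 and 47.0 CPM of spleen neutrophils. It was at 73.3 and 102.5 CPM in cluster 4. Ctsd was at 1008 and 1016 CPM in cluster 1 and at 390 and 359 CPM in cluster 4. The part of this mix in the order of tissues was not tested. Comparing 2 libraries of a tissue with 2 of another, the smallest p a two-sided exact permutation test can give is 0.333, so no test was made.

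Tumor neutrophils were shallow, with median depths of 1098 and 1277 UMIs, and RNA of other cells was measured in them. The macrophage genes C1qa, C1qb and C1qc together reached 547 and 569 CPM there, 8.65% and 8.12% of the tumor macrophage level, against 19.3 and 9.26 CPM in spleen neutrophils. The keratin genes Krt8 and Krt18 together reached 27.4% and 26.3% of the carcinoma level. Tumor T cells, which were 90 and 208 cells, also held more of several members than spleen T cells: 317 and 466 against 17.0 and 18.2 CPM for Ctsl, 79.2 and 95.7 against 4.35 and 4.06 CPM for Lgmn, and 245 and 205 against 90.9 and 97.3 CPM for Ctss. For Ctsk the tumor T cells had 26.4 and 10.4 CPM, and 62 of the 67 WT tumor neutrophils with a Ctsk UMI had exactly 1. How much of the tumor neutrophil level these RNAs make up was not tested.

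Against macrophages of the same library, tumor neutrophils held 15.1% and 18.8% of the Ctsh level and 15.9% and 17.5% of the Lgmn level. The figure was 44.4% and 64.8% for Ctsb, 54.8% and 69.2% for Ctsl, and 90.9% and 135% for Ctsd. The members thus stood at unequal shares of the macrophage level, beside 8.65% and 8.12% for the C1q genes. The macrophage class here is tumor cluster 4, with the C1q genes at 6329 and 7005 CPM. The unnamed tumor clusters 9 and 11 had less C1q (2717 and 2408 CPM, and 4653 and 5134 CPM) and more Ctsb and Ctsl. The part of RNA from other cells in these shares was not tested.

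**Figure D2:**
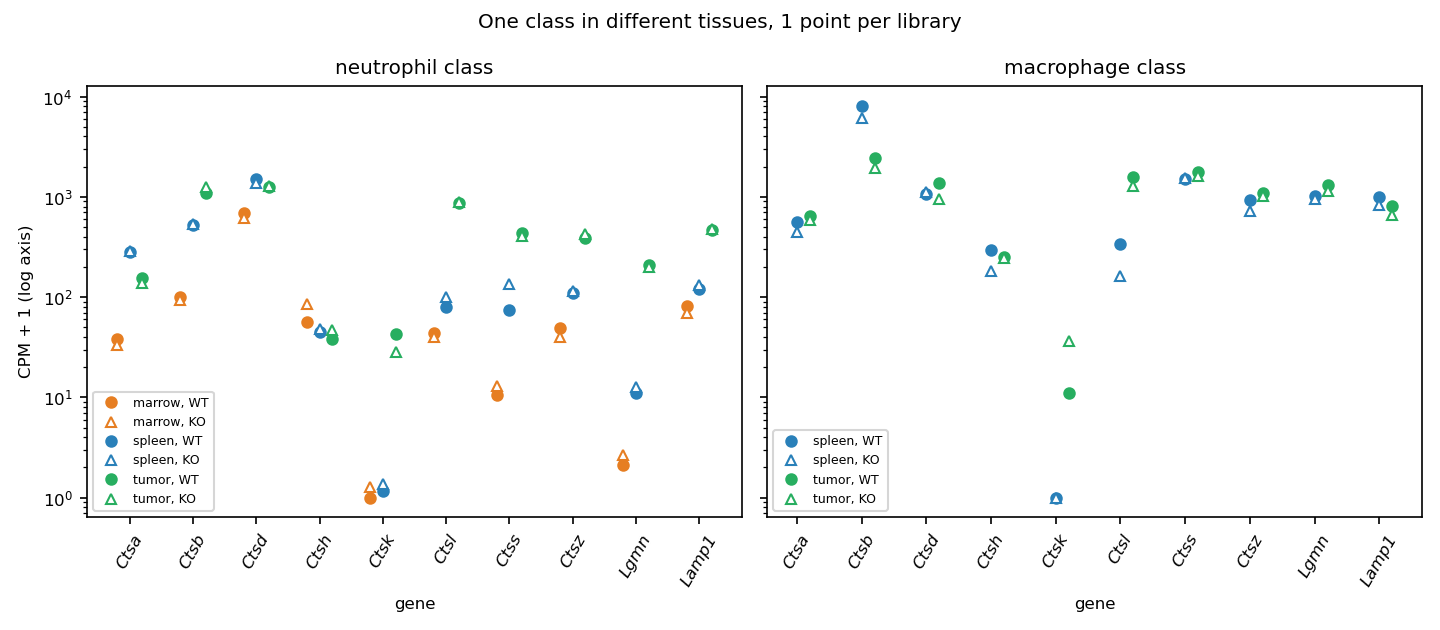
CPM + 1 on a log axis for each gene in the neutrophil class of marrow, spleen and tumor (left) and in the macrophage class of spleen and tumor (right). Filled circles are WT libraries and open triangles KO libraries, 1 point each. Lgmn in neutrophils goes from 1.14 and 1.66 CPM in marrow to 206 and 199 CPM in tumor, and in macrophages Ctsb is lower and Ctsl higher in the tumor.

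Between spleen and tumor macrophages, 6 genes were higher in both tumor libraries than in either spleen library, 2 were lower and 2 overlapped. Of all 7954 genes with enough UMIs in this class, 33.2% were higher and 43.0% lower in this way. Among the higher ones Ctsl was at 335 and 162 CPM in spleen against 1587 and 1275 CPM in tumor. Ctsb and Lamp1 were the lower ones. For Ctsd the tumor values, 1367 and 957 CPM, enclosed those of the spleen, and for Ctsh the spleen values enclosed those of the tumor (248 and 244 CPM). Spleen macrophages were shallower than tumor macrophages, with median depths of 2469 and 1911 UMIs against 7670 and 9957. The tumor class was cluster 4 alone, and the unnamed clusters 9 and 11, which matched macrophage markers best, were outside it. In these clusters Ctsb was also below the spleen values. Lamp1 was within or above them, at 1085 and 964 CPM in cluster 9 and 1293 and 1188 CPM in cluster 11. Ctsd was above them, at 2749 and 2523 CPM and at 2290 and 1971 CPM. The split thus holds for the gated class only.

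Tumor clusters 9 and 11 held a larger share of these genes than the macrophage class. Cluster 11 had the C1q genes at 4653 and 5134 CPM and 14 supporting macrophage markers, beside 12 in cluster 4. It was led by the chemokine genes Ccl8, Ccl6 and Ccl7 and was left unnamed by the rule on leading genes. Cluster 11 had 339 and 148 cells, and the members made up 2.24% and 1.87% of its UMIs. Ctsb was at 5756 and 4683 CPM there, Ctsl at 5687 and 4585, Ctss at 3284 and 2407, and Lgmn at 1893 and 1842. Cluster 9, led by Mmp12, Ccl6 and Arg1 and also left unnamed, had 345 and 327 cells and a member share of 1.79% and 1.99%. Its Ctsd, at 2749 and 2523 CPM, was above that of cluster 11 at 2290 and 1971, with Ctsl at 4636 and 6436 CPM and Ctsb at 4070 and 4130 CPM. Cluster 12, with high class II genes and 152 and 320 cells, was the tumor class gated on monocyte markers. It had a member share of 1.10% and 0.976%, close to that of macrophages. Its Ctsb was at 2355 and 1872 CPM, Ctsl at 2281 and 2072 CPM and Ctss at 1803 and 1851 CPM.

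**Figure D3:**
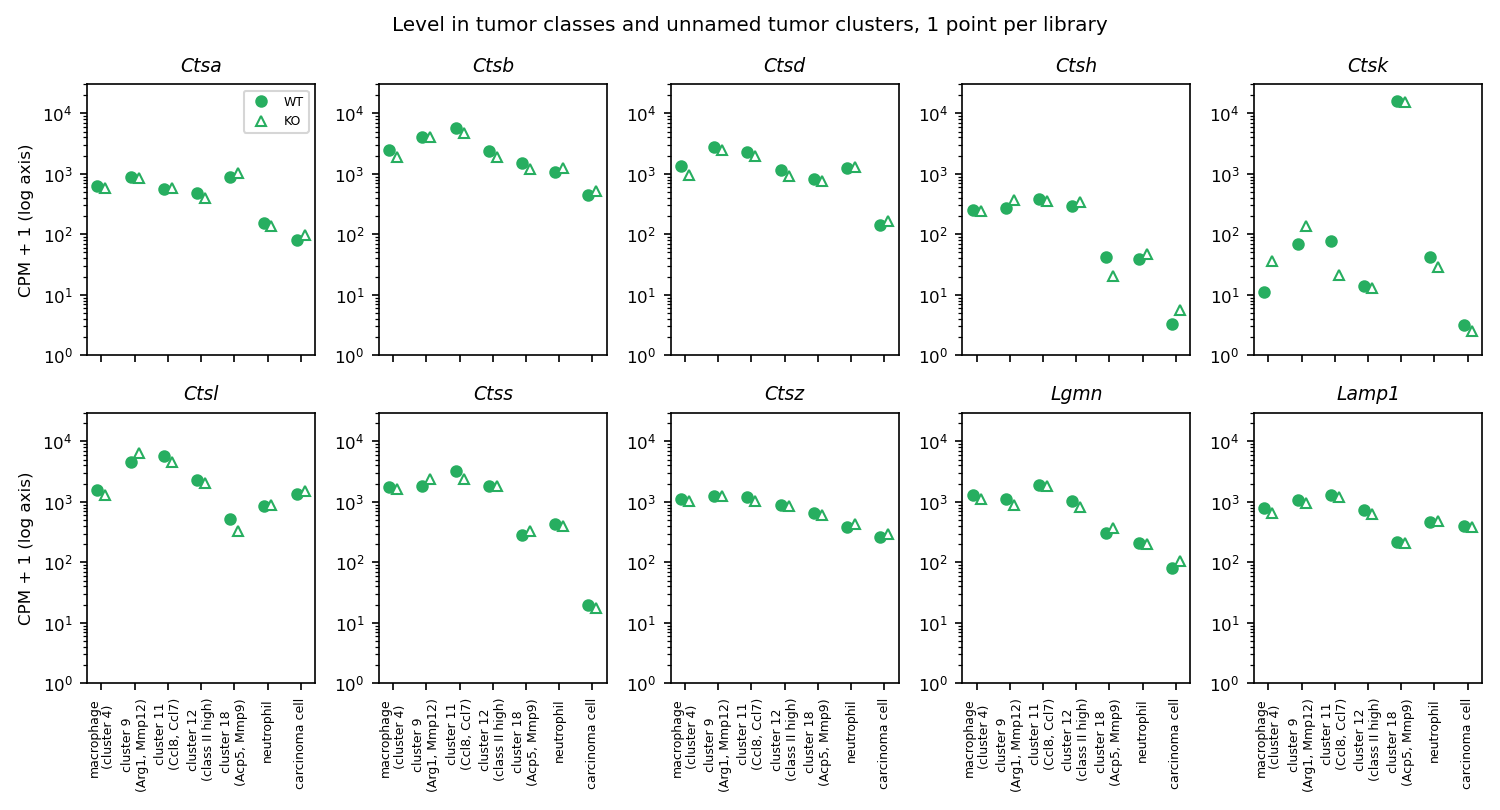
CPM + 1 on a log axis for each gene in tumor macrophages, neutrophils and carcinoma cells and in clusters 9, 11, 12 and 18, 1 point per library (filled circles WT, open triangles KO). Ctsk lies at 15850 and 15260 CPM in cluster 18 and far lower in the other groups, while Lamp1, at 215 and 207 CPM, is lower there than elsewhere in the plot.

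Ctsk RNA was concentrated in few cells of the tumor. Cluster 18 had 27 and 14 cells, 0.337% and 0.233% of the kept cells, and held 3838 of 4835 Ctsk UMIs in the WT library (79.4%) and 3103 of 3737 in the KO library (83.0%). Its Ctsk level was 15850 and 15260 CPM. Although Ctsk took no part in the clustering, the cluster was also high in genes known from osteoclasts: Acp5, an acid phosphatase, at 11810 and 11110 CPM, the collagenase gene Mmp9 at 3827 and 5630, the proton pump subunit gene Atp6v0d2 at 805 and 988, and the fusion genes Ocstamp at 297 and 280 and Dcstamp at 301 and 290. Calcr, another osteoclast gene, had 1 UMI in each library. The other members were lower than Ctsk in cluster 18: Ctsa was at 871 and 1033 CPM, Ctsb at 1507 and 1190, Ctsl at 512 and 329, Ctss at 281 and 329, Lamp1 at 215 and 207, and Ctsh at 41.3 and 19.7. With under 50 cells in each library the cluster is given by its levels only.

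In the comparison of genotypes, 6 member values of the 8 classes were apart by at least 1.5-fold, 64 were within it, and the others had too few UMIs. Those 6 were Ctsh and Ctsl in spleen macrophages, Ctss in spleen neutrophils, Ctsh in marrow neutrophils, Ctsk in tumor macrophages and Ctsh in carcinoma cells. In spleen dendritic cells, spleen B cells and tumor neutrophils the count was 0. Over all genes tested, the share apart ran from 3.12% in spleen B cells to 11.9% in tumor neutrophils.

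**Figure D4:**
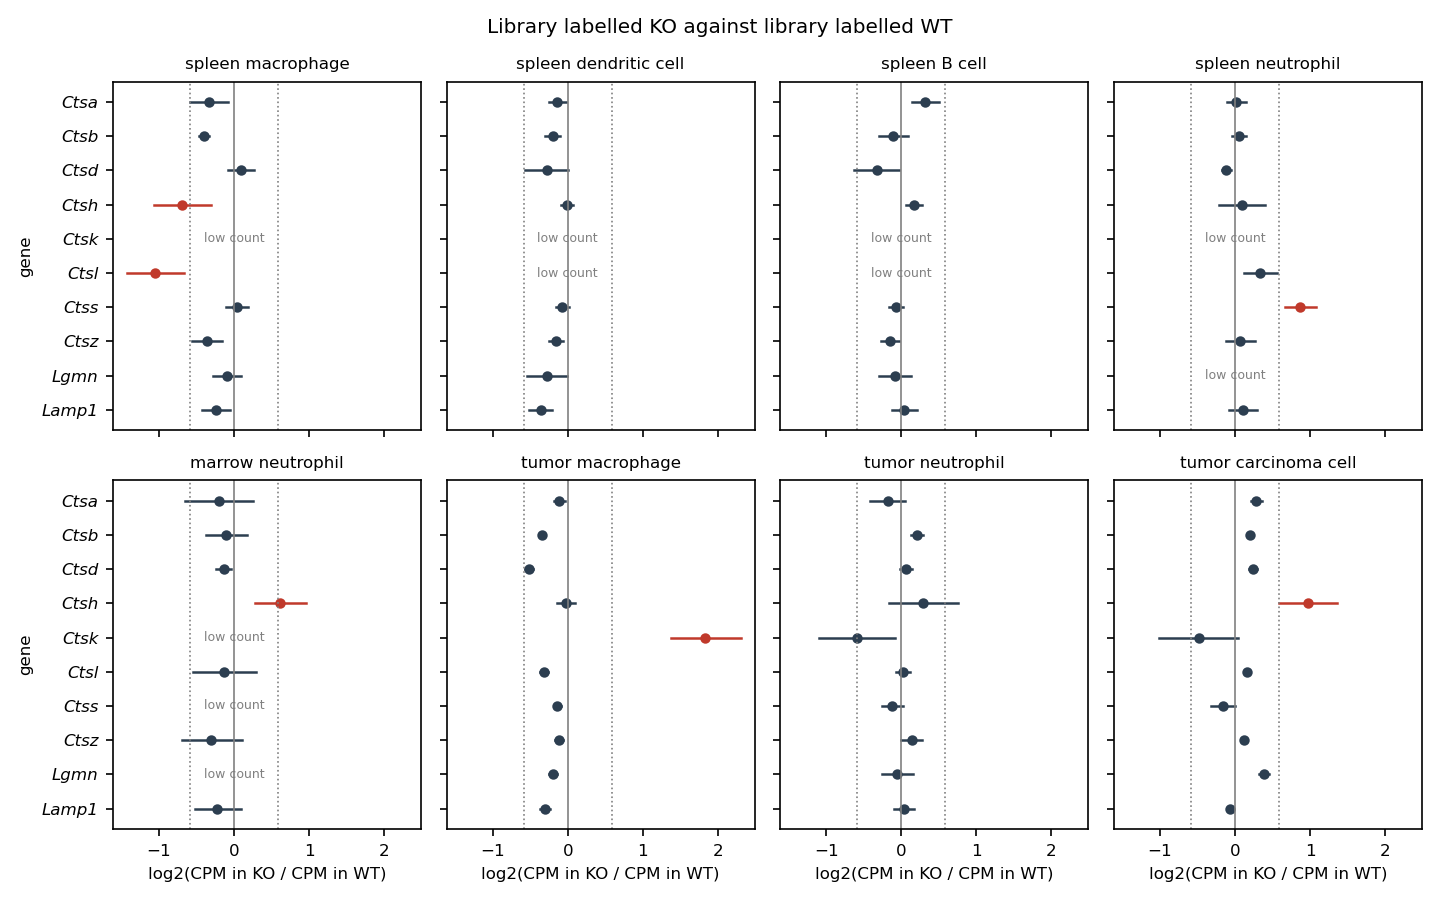
log2 of the ratio of CPM in the library labelled KO to CPM in the library labelled WT, for each gene in 8 classes, with exact 95% counting intervals as bars. Dotted lines mark 1.5-fold, red marks genes past it, and "low count" marks genes under 100 UMIs. Most points lie between the dotted lines, and the 6 red points are spread over 5 classes.

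In spleen macrophages Ctsl was lower in the library labelled KO, with 335 CPM (281 to 397) in WT and 162 CPM (133 to 195) in KO, a ratio of 0.483 (0.372 to 0.627) and a log2 difference of -1.05. A UMI of Ctsl was found in 50.5% of 109 and 32.6% of 193 cells, against 5.02% and 6.17% of spleen T cells. Ctsh was lower as well, at 292 CPM (242 to 351) and 181 CPM (150 to 216), a ratio of 0.619 (0.477 to 0.805). Ctsb fell short of the threshold with a ratio of 0.758 (0.723 to 0.793), while Ctss, Ctsd and Lgmn had ratios of 1.03, 1.06 and 0.936. The members called were 2 of 9 tested, both lower, beside 11.3% of all 1812 genes tested in this class, and the median log2 difference was -0.33 for the members and -0.04 for all genes. The lower Ctsl was not particular to macrophages. In the spleen class gated on monocyte markers it was at 326 and 111 CPM, a ratio of 0.3408 (0.2775 to 0.4165). Ctsh there was at 432 and 435 CPM.

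Both spleen macrophage clusters went the same way for Ctsl, with log2 differences of -0.52 in cluster 16 and -1.29 in cluster 21. The cells labelled KO were shallower (1911 against 2469 median UMIs), and S100a8 and S100a9 of neutrophils were at 2599 CPM in the WT class and 1126 in the KO class. The part of these in the difference was not tested. The call of Ctsh was lost under median-of-ratios scaling (-0.57), with cells gated individually (-0.41) and as a mean over cells (-0.41). Ctsl was past the threshold in each of these, from -0.72 to -2.42, and after thinning every cell to 1000 UMIs both had too few counts.

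Spleen neutrophils had 1 member apart, Ctss, which was higher in the library labelled KO. It measured 74.0 CPM (67.2 to 81.3) in WT and 135 CPM (122 to 150) in KO, a ratio of 1.83 (1.59 to 2.11) and a log2 difference of 0.86. A Ctss UMI was found in 15.3% of 2322 and 23.6% of 1085 cells, whereas spleen T cells, at somewhat greater depth, had 23.5% and 30.7% and 90.9 and 97.3 CPM. The neutrophil level was thus below that of T cells in WT and above it in KO. Of 8 members tested 1 was called, beside 10.4% of all 5008 genes, and the medians were 0.08 for members and for all genes.

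The 2 neutrophil clusters of the spleen differed in Ctss and in their share of each library. Cluster 1, led by Cxcl2 and Il1b, had 1250 WT and 807 KO cells and Ctss at 124 and 186 CPM. Cluster 4, led by Retnlg and S100a9, had 1072 and 278 cells and Ctss at 43.6 and 40.7 CPM. The log2 difference was 0.59 within cluster 1 and -0.10 within cluster 4, and with both clusters weighted alike in the libraries it was 0.48, under the threshold.

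Marrow neutrophils showed Ctsh at 55.2 CPM (44.8 to 67.3) in WT and 84.2 CPM (75.1 to 94.3) in KO, a ratio of 1.53 (1.21 to 1.94) and a log2 difference of 0.60. A UMI was found in 66 of 336 and 253 of 1263 cells, whose median depth was 4810 and 2635 UMIs. After thinning to 1000 UMIs the shares were 4.04% and 7.88%. Marrow stem or progenitor cells had Ctsh at 10.2 and 11.6 CPM. Marrow immature neutrophils had it at 18.3 and 31.1 CPM, a ratio of 1.696 (1.351 to 2.135), and marrow monocytes at 258 and 348 CPM, a ratio of 1.352. In marrow neutrophils 1 of 7 members tested was called, beside 5.64% of all 3600 genes. The median was -0.14 for members and -0.03 for all genes. The call sat at the threshold: it was lost with at most 20% mitochondrial UMIs (0.58), with clusters weighted alike (0.55) and with a pseudocount of 10 CPM (0.53), and stood at 1.03 after thinning.

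Tumor macrophages had Ctsk at 9.95 CPM in WT and 35.4 CPM in KO, a ratio of 3.56 (2.60 to 4.94). This difference rested on 3 cells: 143 of the 157 UMIs in the KO class came from 3 cells, the highest with 106, whereas 16 of the 54 WT UMIs did. A Ctsk UMI was in 40 of 645 WT cells (6.20%) and in 16 of 417 KO cells (3.84%), the opposite order. Without the 3 cells of most Ctsk UMIs in each library the levels were 7.06 and 3.19 CPM and the log2 difference turned from 1.73 to -0.94. This check was chosen after the data were seen.

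The other 9 members of the tumor macrophage class were within 1.5-fold, and all 9 were lower in the library labelled KO. Ctsd was the nearest to the threshold, at 1367 CPM (1336 to 1398) and 957 CPM (929 to 986), a ratio of 0.700 (0.674 to 0.727). Ctsb had a ratio of 0.792 (0.771 to 0.814), Ctsl of 0.803 (0.777 to 0.831) and Lamp1 of 0.812 (0.775 to 0.851). Ctsh, at 0.985 (0.908 to 1.07), was the nearest to equal. Of 10 members 1 was called, beside 4.99% of all 7418 genes, and the median log2 difference was -0.16 for the members and 0.01 for all genes. In cluster 11 the KO value was lower for 8 of these 9 members, the exception being Ctsa at 561 and 576 CPM. In cluster 9 it was lower for Ctsa, Ctsd, Lgmn and Lamp1 and higher for Ctsb, Ctsh, Ctsl, Ctss and Ctsz, with Ctsl at 4636 and 6436 CPM and Ctss at 1829 and 2353 CPM.

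In carcinoma cells Ctsh was low in both libraries, at 2.32 CPM (1.89 to 2.83) in WT and 4.56 CPM (3.84 to 5.37) in KO, with a UMI in 3.60% and 7.81% of cells. Tumor T cells, with 1 and 7 UMIs of it, were at 3.77 and 12.2 CPM, and thinned to 1000 UMIs the carcinoma shares were 0.372% and 0.381%. The ratio of Ctsh in carcinoma cells was 1.96 (1.51 to 2.57), with 1 of 10 members called beside 3.22% of all 10832 genes. Cluster 10, which had the most Ctsh (9.69 and 9.24 CPM), held 153 of 2192 WT and 362 of 1331 KO cells. Weighted alike over clusters the log2 difference was 0.26 in place of 0.74.

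The most abundant carcinoma member, Ctsl, differed little, with a ratio of 1.12 (1.11 to 1.14), and it was at 1417 and 1414 CPM within cluster 0, 1100 and 1183 within cluster 3, and 2167 and 2054 within cluster 10. Lgmn gave a ratio of 1.31 (1.25 to 1.37), from 81.1 and 106 CPM, beside 79.2 and 95.7 CPM in tumor T cells. The median log2 difference was 0.18 for the members and 0.01 for all genes.

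Dendritic cells had 0 of 8 tested members apart, beside 4.49% of all 7299 genes. Their levels of Ctsh were 552 CPM (532 to 573) and 549 CPM (526 to 573), a ratio of 0.994 (0.939 to 1.05), and those of Ctss gave 0.952 (0.897 to 1.01). Lamp1 was the farthest from equal, at 185 and 145 CPM and a ratio of 0.780 (0.701 to 0.868). All 8 tested members were lower in the library labelled KO, with a median of -0.18 against 0.08 for all genes. They were also lower within dendritic clusters 8 and 13. In cluster 22, with 38 and 27 cells, Ctsa, Ctsb and Ctsh were lower. Ctsd, Ctss, Ctsz, Lgmn and Lamp1 were higher there, by log2 differences of 0.09 (Lamp1) to 0.54 (Ctsz).

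B cells had 0 of 8 tested members apart, beside 3.12% of all 7683 genes. Ctss gave a ratio of 0.954 (0.895 to 1.02) and Ctsh 1.13 (1.04 to 1.21). Ctsa was the farthest upward, 97.4 and 122 CPM, a ratio of 1.25 (1.10 to 1.42), and Ctsd the farthest downward, 43.9 and 35.0 CPM and 0.797 (0.647 to 0.983). The medians were -0.08 for members and 0.04 for all genes.

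Tumor neutrophils had 0 of 10 members apart, beside 11.9% of all 4334 genes. Ctsb gave a ratio of 1.16 (1.09 to 1.23), Ctsd 1.04 (0.984 to 1.10) and Ctsl 1.01 (0.949 to 1.09). Ctsk, at 41.5 and 27.6 CPM, was just inside the threshold with a log2 difference of -0.57. The members' median was 0.03 and that of all genes -0.13.

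Other genes of the lysosome and of its substrates' pathway were read from lists. The stefins are cytosolic inhibitors of cysteine cathepsins, and in marrow neutrophils 4 of 7 tested inhibitor genes were at least 1.5-fold lower in the library labelled KO, beside 5.64% of all genes apart in either direction. Stfa2 was at 1102 and 465 CPM, Stfa2l1 at 829 and 515, Stfa3 at 582 and 214, and the serpin gene Serpinb6a at 25.0 and 15.5. In spleen neutrophils 3 of 7 were lower, beside 10.4% of all genes apart: Stfa2 at 675 and 239 CPM, Stfa3 at 178 and 46.0, and Serpinb1a at 48.2 in WT with a ratio of 0.333 (0.237 to 0.457). In tumor neutrophils 2 of 7 were lower, beside 11.9% of all genes apart, with Stfa2 at 296 and 188 CPM and Stfa3 at 36.9 and 17.0. Stefin genes are near-identical copies, and how reads were split between them is uncertain. The mix of clusters also differed between libraries. Cluster 4 was 1072 of 2322 WT and 278 of 1085 KO spleen neutrophils. In marrow, cluster 4 was 136 of 336 WT and 593 of 1263 KO neutrophils. The part of this mix in the inhibitor values was not tested. Carcinoma cells went the other way, with 2 of 7 inhibitor genes higher, 0 lower and a median of 0.54, beside 3.22% of all genes apart. These lists are described by counts, with no test.

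Cathepsins outside the 10 genes were mostly within 1.5-fold. In marrow neutrophils 1 of 3 tested was lower, Ctsg, a granule serine protease, at 159 and 90.9 CPM, and in tumor macrophages 0 of 3 were apart. Among lysosomal glycosidases, lipases and sulfatases 2 of 11 were lower in spleen macrophages, beside 11.3% of all genes apart: the acid phosphatase gene Acp5 at 332 and 192 CPM and the fucosidase gene Fuca1 at 158 and 86.1 CPM. The alpha-galactosidase gene Gla was higher in neutrophils of the library labelled KO in spleen, at 135 and 213 CPM, and in tumor, at 269 and 470 CPM. Man2b1 was lower in tumor neutrophils (107 and 61.1 CPM) and Acp2 in dendritic cells (17.9 and 10.6 CPM).

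Sort1, which encodes a sorting receptor for lysosomal proteins, was lower in spleen macrophages, at 275 and 141 CPM, and so was the membrane protein gene Cln3, at 128 and 83.1 CPM. In spleen neutrophils the sorting adaptor gene Gga3 was higher, at 11.1 and 19.2 CPM. In tumor macrophages the proton pump subunit gene Atp6v1e1 was 1 of 17 pump genes apart, at 163 and 102 CPM. Further genes lower there were Dpp7 (39.6 and 24.8 CPM), Tmem106b (25.6 and 15.8 CPM) and Gga2 (19.0 and 12.2 CPM). The peptidase gene Napsa was lower in tumor neutrophils (31.1 and 19.9 CPM), and the membrane protein gene Laptm4b in dendritic cells (25.0 and 13.8 CPM).

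Tfe3, a transcription factor of lysosomal genes, was at least 1.5-fold lower in the library labelled KO in 4 of the 8 classes. It was at 45.5 and 27.3 CPM in marrow neutrophils, 52.2 and 30.3 CPM in dendritic cells 61.7 and 37.2 CPM in tumor macrophages, and 26.3 and 16.4 CPM in B cells. Medians of the lysosomal lists in tumor macrophages were -0.10 for the 27 tested glycosidases, lipases and sulfatases, -0.21 for the 17 pump subunits and -0.25 for the 5 cofactors, against 0.01 for all genes. In spleen macrophages they were -0.25 for 11 glycosidases, lipases and sulfatases and -0.41 for 4 sorting genes, against -0.04, and in spleen neutrophils -0.38 for 5 peptidases, against 0.08. Tfe3 had too few UMIs in spleen macrophages and was within 1.5-fold in spleen neutrophils. Marrow monocytes had Tfe3 at 42.7 and 23.6 CPM. Their medians were 0.14 for peptidases, 0.04 for glycosidases, lipases and sulfatases, 0.23 for cofactors and 0.10 for membrane genes. They were -0.13 for pump subunits and -0.04 for sorting genes, against -0.01 for all genes. A link of these medians to Tfe3 was not tested.

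Class II genes, whose products are loaded with peptides that cathepsins cut, differed in the tumor. In tumor macrophages 5 of 6 tested genes were higher in the library labelled KO, beside 4.99% of all genes apart, among them Cd74, the invariant chain gene, at 757 and 1628 CPM, H2-Aa at 130 and 229, H2-Ab1 at 106 and 181, and H2-Eb1 at 72.4 and 147. In tumor neutrophils 4 of 5 were higher, beside 11.9% of all genes apart, with Cd74 at 129 and 415 CPM, H2-Aa at 39.8 and 140, H2-Ab1 at 36.3 and 109, and H2-Eb1 at 35.1 and 131. Ctss was within 1.5-fold in both classes, with ratios of 0.909 (0.881 to 0.937) and 0.919 (0.834 to 1.01). In spleen macrophages H2-Ab1 was higher (1252 and 1959 CPM). Carcinoma cells, at 220 and 425 CPM for the whole list, also had 5 of 7 higher, beside 3.22% of all genes apart. Cluster 12, the tumor cluster led by class II genes, held 152 WT and 320 KO cells, and the part of its RNA in these values was not tested.

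Over 76 units of a class or cluster in 1 library, the level of each gene was compared with that of all genes with at least 500 UMIs, and the 3 most similar were taken. Each unit had at least 50 cells. Tumor cluster 18, with 27 and 14 cells and 79.4% and 83.0% of the tumor Ctsk UMIs, was therefore not among them. All correlations of Ctsk thus describe its low levels outside that cluster. These correlations are descriptions, since the units share libraries and depth and neighbouring clusters are alike. Ctss and Lgmn were each other's match (Pearson r of 0.909), which was the highest value between members. The lysosomal membrane gene Cd68 led for Ctsa (0.864) and was among the 3 for Ctsb (0.893). For Lgmn the leader was Sdc3 (0.923), for Ctsz and Lamp1 the lysosomal transporter gene Mfsd1 (0.853 and 0.883), and for Ctsh Pld4 (0.844). Ctsl was led by Cstb (0.886), which encodes an inhibitor of cysteine cathepsins, followed by the chemokine genes Cxcl1 and Ccl2 (0.884 and 0.881). For Ctsd no gene exceeded 0.807 (Sdcbp), and for Ctsk the leaders were Cxcl14 (0.929), Mmp13 (0.917) and Pmp22 (0.912). Between members the lowest values were those of Ctsd with Ctsh (0.127), Ctsh with Ctsk (0.177) and Ctsd with Ctsz (0.261).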

How the data were processed

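The deposited matrices hold counts, as whole UMIs per gene and barcode, of 6 libraries. Per the submitters' processing notes the authors used Cell Ranger 6.0.0 and build mm10, and per the file headers the matrices were written by version 6.1.0. The labels' protocols name kits for either end of the transcript, 5' as well as 3' v3, and which of them gave these reads is unsettled. In 3 libraries 19 antibody features with 1 to 3 counts were left out. The 10 genes and all gene lists were chosen with earlier results of these data known.

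Barcodes with at least 300 genes, 500 UMIs and at most 10% mitochondrial UMIs were kept, and doublets were scored against simulated ones per library, with the highest scores removed at 0.8% of barcodes per 1000 barcodes. WT and KO cells of a tissue were clustered together (2000 variable genes, 30 components, 15 neighbours, leidenalg 0.10.2 at resolution 1) without the 10 genes, Cysltr1, antigen receptor segments and sex-linked genes. Clusters were gated on marker lists, with the thresholds set after the data had been seen, and classes such as "macrophage" mean cells like it by these markers. Unnamed cells were 33.1% to 44.9% in marrow, 2.01% to 2.27% in spleen and 22.2% to 27.7% in tumor. UMIs were summed per class and library. Intervals for CPM are exact Poisson, those for shares Clopper-Pearson, and those for ratios conditional binomial, computed with scipy 1.17.1 at 95%. There was 1 library per arm and no test. Named list genes were up to 4 per list that were 1.5-fold apart in the macrophage, dendritic cell or neutrophil classes, those with the most UMIs first. H2-DMb2, also apart in tumor macrophages, falls outside this rule, and Tfe3 in B cells was named after its value was seen. Some genes that this rule or the ranking of similar genes picked are not reported here. The ratio and count steps were tested on simulated data. Alternatives are given in the closing section.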

Additional observations from a re-analysis of the deposited data

How the results depend on the processing

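Counts of members at least 1.5-fold apart were small and moved by 1 or 2 in most classes. In marrow neutrophils the count of 1 became 0 with a pseudocount of 10 CPM, with at most 20% mitochondrial UMIs and with clusters weighted alike, and 2 with cells gated individually and with cells thinned to 1000 UMIs. In spleen macrophages the count of 2 became 1 under median-of-ratios scaling, with cells gated individually and as a mean over cells, and 0 after thinning. It changed from 0 to 4, all lower, in dendritic cells gated individually (194 and 109 cells), from 0 to 1 in B cells with no filter on low counts, and from 1 to 0 in spleen neutrophils with clusters weighted alike. In tumor macrophages 1 became 0 after thinning. In tumor neutrophils 0 became 1 with a pseudocount of 0.1 CPM, doublets kept, cells gated individually, a mean over cells or clusters weighted alike. In carcinoma cells 1 became 0 with a pseudocount of 10 CPM, doublets kept, cells gated individually, thinning or clusters weighted alike, and 2 as a mean over cells. The cause was not tested, except that thinning and individual gating leave fewer UMIs and cells. The value of Ctsk in tumor macrophages reversed to -0.94 without its 3 highest cells in each library, an alternative chosen after seeing the data, and was 0.87 to 1.82 under the others that gave a value. Without those cells the other 5 called members kept their direction. Class levels moved beyond their counting interval for 94 of 160 with cells gated individually, 80 of 160 after thinning and 21 of 160 with the mitochondrial limit at 20%. Weighting clusters alike was not possible for tumor macrophages, which are 1 cluster. Depth limits Ctsk outside the tumor and Lgmn and Ctss in marrow neutrophils, which had under 100 UMIs. No paired analysis was possible because the labels give no replicate numbers and each group has 1 library.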

Other observations

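Tfe3, which encodes a transcription factor that acts on lysosomal genes, was looked at over every class and cluster after its values in the compared classes had been seen. It had enough UMIs in 18 of them and was at least 1.5-fold lower in the library labelled KO in 13, higher in 0 and within 1.5-fold in 5. The lower ones were in all 3 tissues: among them marrow monocytes at 42.7 and 23.6 CPM, spleen monocytes at 66.5 and 34.5, tumor cluster 9 at 46.9 and 27.6, and tumor cluster 11 at 71.4 and 45.9. The 5 within were 3 neutrophil classes (spleen neutrophils at 56.6 and 46.3 CPM, spleen immature neutrophils at 43.9 and 32.6, tumor neutrophils at 28.8 and 22.9) and carcinoma cells at 18.9 and 25.5 and fibroblast or mural cells at 39.3 and 57.1. The classes of a tissue share the same pair of libraries, so these are at most 3 comparisons, and no test was made.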
